A study of Homo sapiens with 6 samples.

Results

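The genes described here are 36 genes of glycolysis, glucose and lactate transport and the response to low oxygen, chosen by name from a table of 57209 gene identifiers. For each of them, any gene whose exons overlap its exons on the other strand was kept as a value of its own, which gave 17 such genes opposite 16 of the 36. The data were counts of RNA fragments per gene from 6 libraries of MB157, a long-used human line of triple-negative breast cancer cells. Per the sample titles, the cells of both groups carried the Cas9 nuclease, and per the labels they grew in DMEM with 10% serum and 2 µM puromycin. The series text instead describes the cells as stably expressing SOX9, and the sources used here do not say whether both hold. One group (3 libraries) had received a control sgRNA and the other (3 libraries, labelled SOX9 KO) an sgRNA that targets SOX9, whose product is a DNA-binding HMG-box protein. RNA was taken 4 days later from the top 50% of cells by sgRNA expression. The stated purpose was to find target genes of SOX9 in triple-negative breast cancer. The labels call the replicates technical, so that p-values measure the spread between libraries and not between independent experiments. The cells are 1 line, and the sources used here do not give the oxygen level of the culture.

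Glycolysis splits glucose into pyruvate in a fixed series of enzyme steps, and lactate dehydrogenase turns the pyruvate into lactate that leaves the cell through monocarboxylate transporters. Many tumour cells run this route at a high rate even where oxygen is present. When oxygen falls, the EGLN prolyl hydroxylases no longer mark the HIF1A protein for destruction, and HIF1A raises transcription of glucose transporters, nearly every glycolytic enzyme, the angiogenic factor VEGFA and other targets. HIF1A is controlled mainly through the stability of the protein, which counts of RNA do not show.

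The libraries were shallow, with 776125 to 1018854 counts each, and SOX9 sgRNA libraries detected 20207 to 21082 genes against 18326 to 18818 in control libraries. The libraries were scaled by TMM factors, which were 0.936 to 0.940 in the control group and 1.055 to 1.077 in the SOX9 sgRNA group. The counts named for SOX9 itself ran from 37 to 60 in all libraries (log2 fold change -0.22, edgeR adjusted p = 0.70). Among markers, the epithelial keratin gene KRT8 had 371 to 558 counts and EPCAM 31 to 68. The estrogen receptor gene ESR1 had 0 to 7 and the progesterone receptor gene PGR 3 to 7, while ERBB2, the gene of the HER2 receptor, had 141 to 213. The blood cell marker PTPRC had 0 to 1 counts and the fibroblast markers PDGFRB and COL1A1 had 0 to 2 and 2 to 7. Of the keratin genes, KRT19 (-0.74) and KRT7 (-0.97) were lower with the SOX9 sgRNA, while KRT5 (0.41), KRT18 (0.33) and KRT8 (0.11) were not called. KRT14 had 14, 9 and 16 counts in the control libraries against 1, 0 and 6, and KRT17 had 0, 3 and 0 against 7, 4 and 10. The count named for MYC was lower (log2 fold change -1.08 with adjusted p = 0.00032 by edgeR). These changes were measured beside the listed genes, and their part in the results below was not tested.

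A count belongs here to the gene and strand it was assigned to. The labels name a stranded library kit, the SMARTer Pico v2, and the file headers name strand setting 1 for the counting. Reads of this kit are generally counted with the reverse setting. If that holds here, each count was made on the wrong strand, and the value named for HK2, ENO1, GAPDH, CA9 or any other gene is of RNA from its other strand. The sense signal would then show only where a gene is annotated opposite. Between 80.9% and 81.5% of the counts of each library fell in genes with an exon on their other strand, which are 11223 of the 57209. Several of the listed genes had far fewer counts than the gene opposite them. GAPDH, the enzyme gene that is among the most abundant transcripts of most cells, took 0.902% to 1.39% of the counts it shared with ENSG00000269968. That gene has 422 bp of exon, and 100% of it lies within GAPDH exons (chromosome 12, 6646960 to 6647536, GRCh37). Per kilobase of exon, the level opposite GAPDH was 25466 raw CPM (counts per 1000000 counts of the library) against 38.1 for GAPDH, a ratio of 668. ENSG00000272114, whose 188 bp of exon all lie within VEGFA exons, stood at 1428 against 0.930 raw CPM per kilobase. HIF1A-AS1 stood at 386 against 5.60 for HIF1A, and PDK1-AS1 at 22.6 against 0.676 for PDK1. The reverse was seen for HK2, where HK2-DT shares 7 bp and held 1 count in the control group and 0 in the other. SLC16A1-AS1 likewise held 2 counts and 1. HK2-DT shares only 0.115% of the exon bases of HK2, and SLC16A1-AS1 2.72% of those of SLC16A1. Reads of HK2 or SLC16A1 would rarely fall in such short overlaps, so these pairs do not decide the strand. HIF1A and PDK1 also share little with their opposite genes, 2.27% and 2.94% of their exon bases. The strand of the reads was not tested, since the tables hold counts only. All levels and changes are therefore those of a count named for a gene, and none shows by itself that the transcript of that gene was low or changed.

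**Figure D1:**
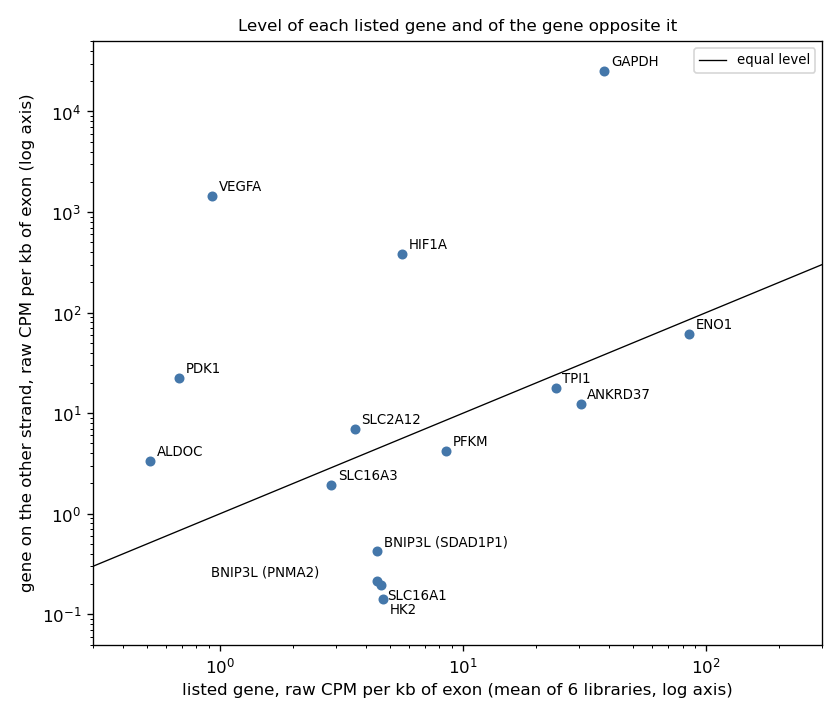
Level of each listed gene (x axis) and of the gene on its other strand (y axis), in raw CPM per kilobase of exon, mean of 6 libraries, both axes logarithmic; the line marks equal levels and pairs with a 0 are left out. GAPDH, VEGFA, HIF1A and PDK1 lie far above the line, and HK2, SLC16A1 and BNIP3L far below it.

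With the SOX9 sgRNA, the counts named for the hexokinase gene HK2 and the enolase gene ENO1 fell. So did those of 3 genes on the other strand, namely TBPL1 opposite the glucose transporter gene SLC2A12, HIF1A-AS1 opposite HIF1A, and ENSG00000269968 opposite GAPDH. Of the 36 listed genes, 25 had enough counts to be tested, and 2 were lower and 0 higher by edgeR's quasi-likelihood test at an adjusted p below 0.05. At an unadjusted p below that value 3 were lower and 1 higher, and DESeq2 called 2 lower and 0 higher. At the same unadjusted p by edgeR, 902 of all 7959 genes tested were lower and 730 higher. Over all 7959 genes tested 6.02% were called lower and 2.99% higher, so that 2 of 25 is near the background. Scaled by library totals alone, all genes split into 249 lower and 625 higher, against 479 and 238. Of the 17 genes on the other strand, 11 were tested, with 3 lower and 0 higher (5 and 2 at an unadjusted p, 3 and 0 by DESeq2). Of all 5003 tested genes that have an exon opposite them, 7.86% were called lower and 3.40% higher. At an unadjusted p below 0.05 by edgeR, 682 of these 5003 were lower and 500 higher. The median log2 fold change was -0.23 over the 25 tested listed genes and -0.50 over the 11 opposite genes, beside 0.0092 over all genes tested. The 2 groups did not overlap in CPM, lower with the SOX9 sgRNA, for 4 of the 25 genes and higher for 1. The same held for 12.8% and 11.7% of all genes tested. In bulk RNA, fewer cells with a transcript and less of it per cell cannot be told apart.

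**Figure D2:**
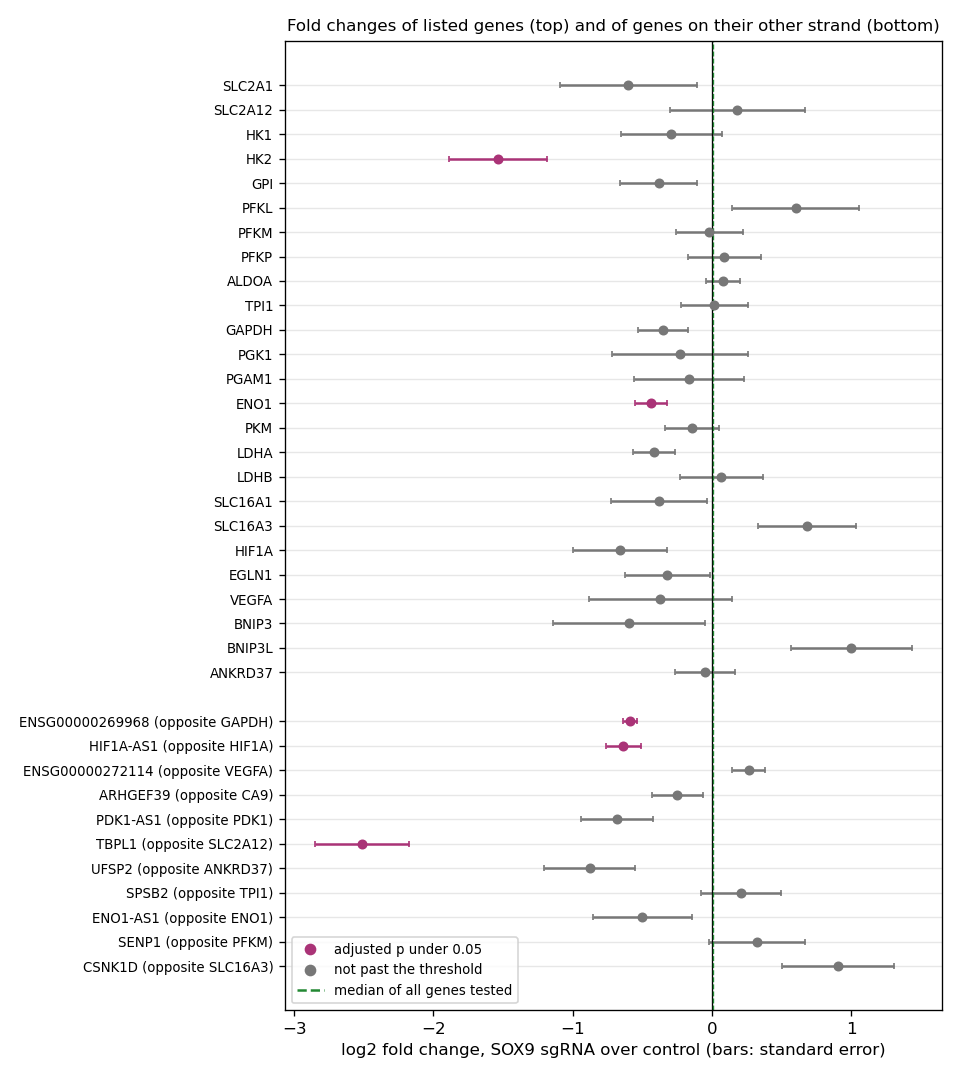
Log2 fold change (x axis), SOX9 sgRNA over control, with its standard error, for the 25 tested listed genes (top) and the 11 tested genes on their other strand (bottom). HK2 at -1.54 and TBPL1 at -2.51 stand furthest from 0 among those past the threshold.

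Start regions are shown for HK2 and ENO1, which were called, and for GAPDH and HIF1A, whose opposite gene was called. HIF1A binds the short cores ACGTG and GCGTG in many glycolytic promoters. The sequences are RefSeq windows on GRCh38.p14, another build than the counts, from 250 bases before to 50 after an annotated start, read 5′ to 3′ on the gene's strand. Capitals mark ACGTG or GCGTG on either strand. The E-box CACGTG, bound by MYC and related factors, holds ACGTG on both strands.
HK2 first start, chr2:74833877-74834176, plus strand: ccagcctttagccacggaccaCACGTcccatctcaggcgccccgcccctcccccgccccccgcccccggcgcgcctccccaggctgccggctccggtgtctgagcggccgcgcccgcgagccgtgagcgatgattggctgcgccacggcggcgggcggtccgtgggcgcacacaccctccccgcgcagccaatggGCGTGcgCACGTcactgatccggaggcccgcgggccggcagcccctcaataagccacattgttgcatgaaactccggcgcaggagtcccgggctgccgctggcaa
HK2 second start, chr2:74834920-74835219, plus strand: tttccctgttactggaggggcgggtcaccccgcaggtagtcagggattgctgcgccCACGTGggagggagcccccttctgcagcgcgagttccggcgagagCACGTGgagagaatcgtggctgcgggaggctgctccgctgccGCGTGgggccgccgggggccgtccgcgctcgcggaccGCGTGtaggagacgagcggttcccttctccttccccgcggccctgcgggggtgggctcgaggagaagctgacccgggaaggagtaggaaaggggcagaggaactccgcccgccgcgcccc
ENO1, chr1:8878637-8878936, minus strand: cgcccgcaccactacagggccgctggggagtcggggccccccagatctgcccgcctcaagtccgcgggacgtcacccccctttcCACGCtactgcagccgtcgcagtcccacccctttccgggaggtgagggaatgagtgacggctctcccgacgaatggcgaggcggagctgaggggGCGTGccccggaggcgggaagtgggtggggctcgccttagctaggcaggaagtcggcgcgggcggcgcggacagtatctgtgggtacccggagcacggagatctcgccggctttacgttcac
GAPDH, chr12:6535014-6535313, plus strand: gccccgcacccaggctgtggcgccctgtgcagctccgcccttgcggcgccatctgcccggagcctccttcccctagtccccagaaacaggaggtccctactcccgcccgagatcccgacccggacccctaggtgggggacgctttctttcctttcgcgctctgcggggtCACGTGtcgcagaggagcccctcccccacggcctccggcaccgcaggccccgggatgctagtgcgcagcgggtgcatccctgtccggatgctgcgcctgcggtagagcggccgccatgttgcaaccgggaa
HIF1A, chr14:61695263-61695562, plus strand: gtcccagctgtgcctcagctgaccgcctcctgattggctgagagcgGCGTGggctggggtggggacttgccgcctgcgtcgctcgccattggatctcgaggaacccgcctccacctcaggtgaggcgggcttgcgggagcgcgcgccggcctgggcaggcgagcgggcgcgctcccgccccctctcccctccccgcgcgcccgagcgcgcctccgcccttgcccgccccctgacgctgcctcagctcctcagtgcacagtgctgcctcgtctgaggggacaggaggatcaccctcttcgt
HK2 has 2 annotated starts with a window each, and HIF1A is shown by the first of its 2. The second HIF1A window, which is not shown, held neither ACGTG nor GCGTG and held 1 ACAATG. Windows were found for 31 of the 36 genes, 58 windows in all, and 38 of these (65.5%) held ACGTG or GCGTG, against 48.4% of all 35116 windows of that length. Of the 31 genes, 28 had at least 1 such window. The share of all genes with such a window was not counted, and a gene with more windows has more places to hold a core. ACGTG alone was in 37.9% of the windows against 21.4% of all, GCGTG in 39.7% against 36.5%, and CACGTG in 13.8% against 7.26%. The motifs ACAATG and ACAAAG, which SOX proteins bind, were in 6.90% and 12.1% of the windows against 10.8% and 16.1% of all, both strands counted. Of the windows shown, the first of HK2 held 1 ACAATG, not marked by capitals, and the others held neither motif. These are descriptions of letters and not of binding. The window of SLC2A12 held neither ACGTG nor GCGTG and held 1 ACAAAG.

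Of the facilitated glucose transporters, which carry glucose across the plasma membrane, SLC2A1 and SLC2A12 were tested and neither passed the threshold. SLC2A1, the widely expressed transporter GLUT1, had 13, 21 and 10 counts in the control libraries and 19, 9 and 5 in the SOX9 sgRNA libraries. These ranges overlap (log2 fold change -0.60, 95% interval -1.58 to 0.38). SLC2A3 had 0 counts in all 6 libraries, which allows up to 2.94 to 3.87 raw CPM per library by counting error alone. The 3 SLC2A3 pseudogenes in the table held 20, 19 and 21 counts in the control libraries and 29, 16 and 40 in the others, so that reads may be missing from the gene itself. SLC2A12 (chromosome 6, 134309835 to 134373774, minus strand) had 16, 13 and 6 counts against 13, 24 and 8, with a log2 fold change of 0.18 (95% interval -0.78 to 1.15).

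TBPL1, which encodes a relative of the TATA-binding protein, overlaps the end of SLC2A12 over 1736 bp of exon, or 34.5% of its own exon length. No other gene lies opposite it. TBPL1 had 57.4, 76.2 and 63.3 CPM in the control libraries and 10.8, 10.4 and 12.7 CPM in the SOX9 sgRNA libraries (CPM from here on is scaled by the TMM factors). The groups lay wide apart, at 65.6 ± 9.61 against 11.3 ± 1.20 CPM (SD, n = 3 each), a 5.71-fold lower level. On the log2 scale the difference was -2.51 (SE 0.34 with adjusted p = 3.61e-08 by edgeR). SLC2A12 took 19.0% ± 7.63 of the pair's counts in the control group and 57.4% ± 18.5 with the SOX9 sgRNA (SD, n = 3 each).

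Hexokinase traps glucose in the cell as glucose 6-phosphate, and HK2 is the isoform that rises in many tumours and under low oxygen. HK2 (ENSG00000159399, chromosome 2, 75061108 to 75120486, plus strand, GRCh37) had 54.7, 36.8 and 47.4 CPM in the control libraries and 18.1, 10.4 and 18.5 CPM in the SOX9 sgRNA libraries. Every SOX9 sgRNA library lay below every control library. The group means were 46.3 ± 9.01 and 15.7 ± 4.56 CPM (SD, n = 3 each), from 103 against 42 raw counts. The level was 2.90-fold lower, with a log2 fold change of -1.54 (SE 0.35 with adjusted p = 0.00113 by edgeR). HK1, the hexokinase of most adult tissues, had 20.0, 27.9 and 43.1 CPM against 18.1, 19.5 and 35.0 CPM. Its groups overlapped (log2 fold change -0.29, 95% interval -1.01 to 0.43), and the difference between the responses of HK1 and HK2 was not tested.

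The steps from glucose 6-phosphate to the triose phosphates held no called gene. GPI, which isomerises glucose 6-phosphate, had 76.1, 40.6 and 51.8 CPM against 40.9, 44.2 and 43.8 CPM (log2 fold change -0.38, SE 0.28). Control library 1 stood above all others. Of the phosphofructokinase subunit genes, which encode the committed step, PFKM had 56.1, 71.1 and 70.5 CPM against 60.2, 81.9 and 54.5 CPM. PFKP had 44.1, 48.3 and 66.1 CPM against 62.6, 45.5 and 59.4 CPM. PFKL had 8, 4 and 20 counts against 16, 20 and 22. The log2 fold changes were -0.018, 0.091 and 0.60 (SE 0.24, 0.26 and 0.46), and the groups of all 3 genes overlapped.

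The aldolase gene ALDOA, whose enzyme splits fructose 1,6-bisphosphate, was counted more often and gave a narrow interval. It had 284, 250 and 276 CPM against 312, 270 and 275 CPM, and its log2 fold change was 0.080 (95% interval -0.16 to 0.32). TPI1, which interconverts the triose phosphates, had 84.1, 67.3 and 53.2 CPM against 59.0, 63.7 and 83.7 CPM (log2 fold change 0.0195, 95% interval -0.45 to 0.49). SPSB2 overlaps the end of TPI1 by 14 bp and also lies opposite 2 further genes, LRRC23 and RPL13P5. It had 42.7, 40.6 and 44.6 CPM against 33.7, 66.3 and 48.7 CPM. SENP1, a SUMO protease gene that starts opposite the start of PFKM over 628 bp, had 26.7, 20.3 and 27.3 CPM against 30.1, 28.6 and 34.1 CPM. Its groups did not overlap, yet its log2 fold change of 0.33 (SE 0.35 with adjusted p = 0.66 by edgeR) was within its error. Too few counts for a test were held by ALDOC (2 in the control group against 6) and by PFKFB3 (13 against 17) and PFKFB4 (0 against 3). The PFKFB enzymes set the level of the fructose bisphosphate that activates phosphofructokinase.

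**Figure D3:**
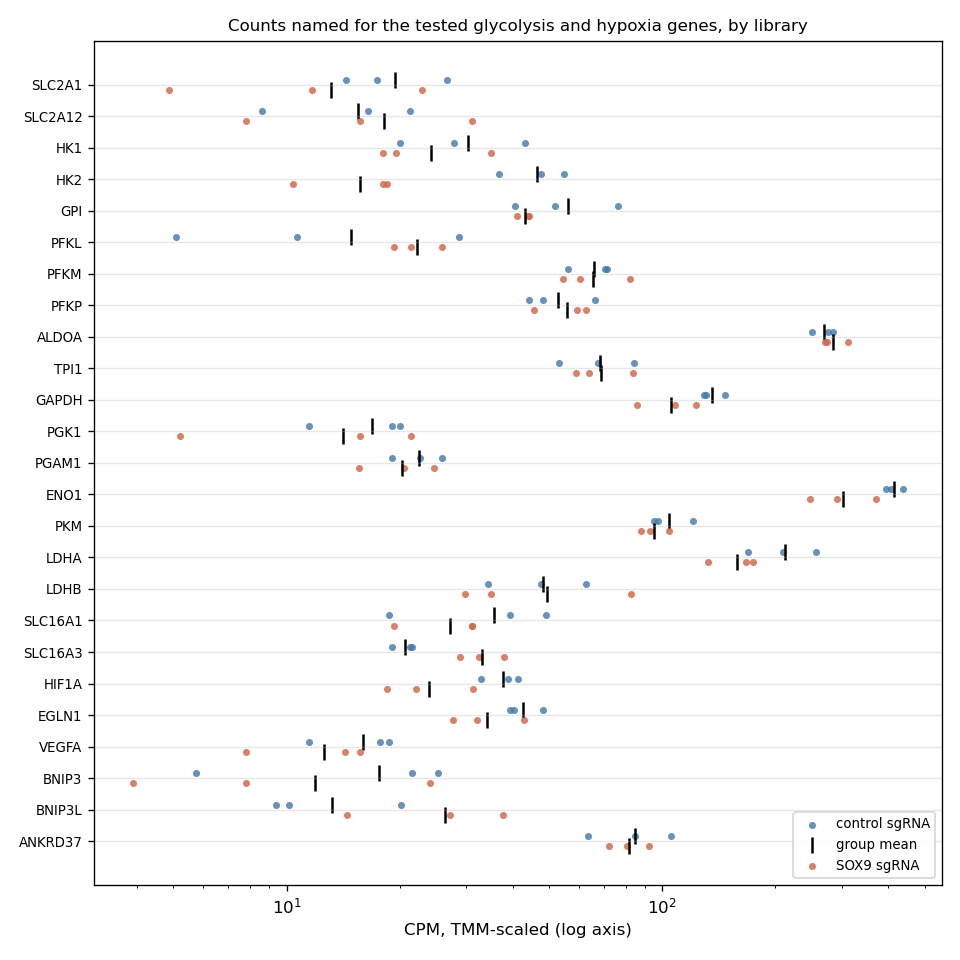
CPM scaled by TMM factors (x axis, logarithmic) of the 25 tested genes, with 1 point per library and a bar at each group mean. For HK2, ENO1, GAPDH and HIF1A all control libraries lie above all SOX9 sgRNA libraries, for SLC16A3 all lie below, and the other 20 genes overlap.

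In the steps from glyceraldehyde 3-phosphate to pyruvate, ENO1 was the 1 listed gene called. Enolase makes phosphoenolpyruvate, and ENO1 is its form in most tissues. ENO1 (ENSG00000074800, chromosome 1, 8921061 to 8939308, minus strand, GRCh37) had 395, 406 and 439 CPM in the control libraries and 291, 247 and 371 CPM in the SOX9 sgRNA libraries. The groups did not overlap, and SOX9 sgRNA library 3 lay nearest to the controls. The means were 413 ± 22.5 and 303 ± 62.8 CPM (SD, n = 3 each), a 1.35-fold lower level with a log2 fold change of -0.44 (SE 0.12 with adjusted p = 0.00729 by edgeR). The call was lost without SOX9 sgRNA library 2 (-0.32 with adjusted p = 0.11 by edgeR) and under library totals in place of TMM factors (-0.25 with adjusted p = 0.17 by edgeR). ENO1-AS1, which shares 126 bp with the start of ENO1, had 33.4, 27.9 and 41.7 CPM against 27.7, 33.8 and 12.7 CPM (log2 fold change -0.50 with SE 0.35 and adjusted p = 0.46 by edgeR). Per kilobase, ENO1 had the highest level of the 36 genes, 84.9 raw CPM, followed by ALDOA with 42.8 and GAPDH with 38.1.

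GAPDH, which oxidises glyceraldehyde 3-phosphate, had 147, 131 and 129 CPM in the control libraries and 108, 85.8 and 123 CPM with the SOX9 sgRNA. The groups did not overlap, and the log2 fold change of -0.35 (SE 0.18 with adjusted p = 0.26 by edgeR) did not pass the threshold. Opposite it, ENSG00000269968 had 13596, 13971 and 13818 CPM against 9456, 9421 and 8672 CPM. Each group was tight and the 2 lay far apart, at 13795 ± 188 and 9183 ± 443 CPM (SD, n = 3 each). On the log2 scale the difference was -0.59 (SE 0.049 with adjusted p = 7.79e-16 by edgeR). GAPDH and its opposite gene are therefore counted with very different precision, 303 against 30797 raw counts in the control group.

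The remaining enzymes of these steps had wide or overlapping values. PGK1, which makes the first ATP of the route, had 15, 15 and 8 counts against 13, 4 and 22. PGAM1, which moves the phosphate group, had 17, 15 and 18 counts against 17, 19 and 16. PKM, the pyruvate kinase gene, had 97.5, 95.2 and 121 CPM against 87.9, 104 and 92.5 CPM (log2 fold change -0.14, 95% interval -0.53 to 0.25). ENO2, the neuronal enolase, held 4 counts in the control group and 7 in the other and was not tested. Genes with processed copies elsewhere in the genome are uncertain, since shared reads can be lost or split. Pseudogenes named after 17 of the 36 genes held 218 to 431 counts per library in all. Those named after BNIP3 held 146, 147 and 163 counts in the control libraries and 237, 220 and 284 in the SOX9 sgRNA libraries, more than BNIP3 itself. GAPDH pseudogenes held 24 to 65.

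Lactate dehydrogenase A favours the making of lactate from pyruvate. LDHA had 256, 169 and 210 CPM in the control libraries and 175, 133 and 167 CPM with the SOX9 sgRNA. Control library 2 fell inside the range of the other group. The log2 fold change was -0.41 (SE 0.15 with adjusted p = 0.079 by edgeR), short of the threshold. It passed in 1 of 10 other settings, without control library 2 (-0.57, edgeR adjusted p = 0.016). Without control library 1 it was -0.26 (edgeR adjusted p = 0.45), and without SOX9 sgRNA library 2 it was -0.31 (edgeR adjusted p = 0.31). LDHB, whose enzyme favours the reverse reaction, had 62.7, 34.3 and 47.4 CPM against 34.9, 29.9 and 82.7 CPM. SOX9 sgRNA library 3 stood above all others, and without it the log2 fold change went from 0.069 to -0.57 (edgeR adjusted p = 0.41).

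The lactate exporter gene SLC16A3, known as MCT4 and a target of HIF1A, had 21.4, 19.0 and 21.6 CPM in the control libraries and 28.9, 32.5 and 38.0 CPM in the SOX9 sgRNA libraries. All SOX9 sgRNA libraries were above all control libraries. The log2 fold change was 0.69 (SE 0.35, 95% interval -0.019 to 1.39) with an edgeR adjusted p = 0.26. CSNK1D, a casein kinase gene opposite SLC16A3 over 482 bp, had 18, 7 and 9 counts against 26, 18 and 32 (log2 fold change 0.91 with SE 0.41 and adjusted p = 0.17 by edgeR). SLC16A1, or MCT1, had 18.7, 39.4 and 48.9 CPM against 19.3, 31.2 and 31.2 CPM. PDK1, which blocks the entry of pyruvate into the mitochondrial cycle, held 30 counts in the control group and 24 in the other and was not tested. PDK1-AS1, opposite its start over 445 bp and also opposite the integrin gene ITGA6, had 81.4, 52.1 and 84.8 CPM against 49.4, 49.4 and 38.0 CPM. The groups did not overlap (log2 fold change -0.68 with SE 0.26 and adjusted p = 0.095 by edgeR). The value passed the threshold in 1 of 10 other settings, without control library 2 (-0.89, edgeR adjusted p = 0.032). Without control library 1 it was -0.595 (edgeR adjusted p = 0.27), and without control library 3 it was -0.56 (edgeR adjusted p = 0.29).

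HIF1A encodes the oxygen-regulated subunit of the factor. HIF1A (chromosome 14, 62162231 to 62214976, plus strand) had 41.4, 33.0 and 38.8 CPM in the control libraries and 31.3, 22.1 and 18.5 CPM with the SOX9 sgRNA. The groups did not overlap, but the log2 fold change of -0.66 (SE 0.34 with adjusted p = 0.25 by edgeR) did not pass the threshold. HIF1A-AS1 (chromosome 14, 62147759 to 62162541, minus strand) starts inside the first part of HIF1A and shares 117 bp of exon with it, 17.9% of its own exon length. It had 356, 284 and 344 CPM against 202, 203 and 227 CPM. All SOX9 sgRNA libraries were below all control libraries, at 328 ± 38.4 and 211 ± 14.0 CPM (SD, n = 3 each). The level was 1.55-fold lower, with a log2 fold change of -0.63 (SE 0.13 with adjusted p = 0.000148 by edgeR). EGLN1, the main oxygen sensor of the hydroxylase family, had 48.1, 39.4 and 40.3 CPM against 27.7, 42.9 and 32.1 CPM, with overlapping groups (log2 fold change -0.32, 95% interval -0.93 to 0.29). EGLN3, itself a HIF1A target, held 4 counts in each group.

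Counts named for classical targets of HIF1A were mostly few. On the strand question above, few counts need not mean little transcript. CA9, the carbonic anhydrase used as a marker of hypoxic tumour tissue, had 0 counts in all 6 libraries. CA12 held 1 count in the control group and 0 in the other, the vasodilator peptide gene ADM 4 and 0, and NDRG1 10 and 13. ARHGEF39, opposite CA9 over 643 bp and also opposite CCDC107, had 150, 114 and 109 CPM against 114, 93.6 and 106 CPM, with overlapping groups.

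VEGFA, the main growth factor for blood vessels, had 14, 14 and 8 counts against 13, 11 and 8 (log2 fold change -0.37, 95% interval -1.40 to 0.65). Opposite it, ENSG00000272114 (chromosome 6, 43738166 to 43738353, minus strand) had 250, 257 and 263 CPM in the control libraries and 297, 317 and 310 CPM with the SOX9 sgRNA. Its groups lay apart, at 256 ± 6.73 and 308 ± 9.90 CPM (SD, n = 3 each), in the other direction from the values opposite GAPDH and HIF1A. The log2 fold change of 0.26 (SE 0.12 with adjusted p = 0.18 by edgeR) did not pass the threshold. Under library totals it was 0.45 and did so (edgeR adjusted p = 0.0072), where the median of all genes stood at 0.19 in place of 0.0092.

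BNIP3 and BNIP3L encode mitochondrial receptors that mark mitochondria for autophagy. BNIP3 had 19, 17 and 4 counts against 20, 6 and 4, and BNIP3L 7, 8 and 14 against 12, 29 and 28. The log2 fold changes were -0.60 (SE 0.55) and 1.00 (SE 0.44 with adjusted p = 0.16 by edgeR). ANKRD37, a small ankyrin repeat gene, had the most counts of the hypoxia targets, with 105, 63.5 and 84.8 CPM against 72.3, 92.3 and 80.8 CPM (log2 fold change -0.0485, 95% interval -0.48 to 0.39). UFSP2, a UFM1 protease gene that overlaps the end of ANKRD37 over 909 bp, had 42.7, 67.3 and 31.6 CPM against 19.3, 37.69 and 21.4 CPM. Its groups overlapped (log2 fold change -0.88 with SE 0.33 and adjusted p = 0.085 by edgeR). The value passed the threshold in 2 of 10 other settings, without control library 3 (-1.10 with adjusted p = 0.023 by edgeR) or SOX9 sgRNA library 2 (-1.22 with adjusted p = 0.031 by edgeR). Without control library 2 it was -0.54 (edgeR adjusted p = 0.47), and DESeq2 did not call it (adjusted p = 0.24).

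**Figure D4:**
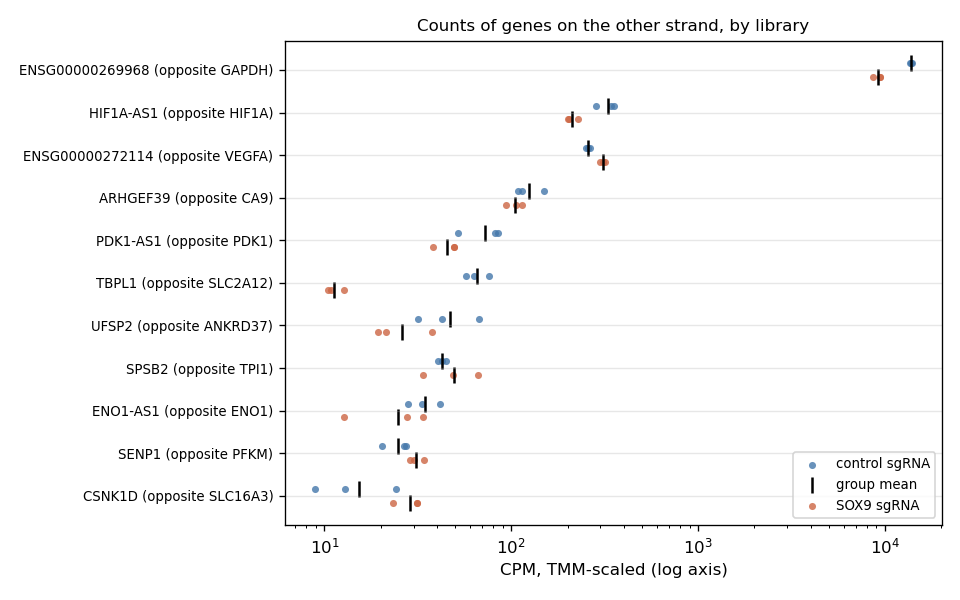
CPM scaled by TMM factors (x axis, logarithmic) of the 11 tested genes on the other strand, with 1 point per library and a bar at each group mean. The control and SOX9 sgRNA points stand apart opposite GAPDH, HIF1A, SLC2A12 and PDK1 and, in the other direction, opposite VEGFA and PFKM. Of all 5003 tested genes with an exon opposite them, 763 stood apart in the lower direction and 620 in the higher.

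Other genes around the route were taken from 4 lists of 114 further genes, of which 48 were tested. Of these 7 were lower and 0 higher by edgeR (10 and 3 at an unadjusted p below 0.05), beside the background of 6.02% and 2.99%. At that unadjusted p, 902 of all 7959 genes tested were lower and 730 higher. The median log2 fold change of the 48 genes was -0.14. In the list of other glycolysis genes 2 of 9 tested were lower, ENO3 and GAPDHS, which are known as the muscle enolase and the sperm form of GAPDH. ENO3 had 3854, 3746 and 3850 CPM in the control libraries and 3019, 2900 and 2836 CPM with the SOX9 sgRNA. Its groups lay apart (log2 fold change -0.39 with SE 0.060 and adjusted p = 1.09e-06 by edgeR). ENO3 lies opposite the profilin gene PFN1 over 111 bp, and PFN1 itself had 12 to 28 raw counts. Per kilobase the count named for ENO3, 737 raw CPM, stood far above the 84.9 of ENO1. GAPDHS fell by 0.57 on the log2 scale (SE 0.15), with TMEM147-AS1 opposite it over 924 bp falling by 0.47 (SE 0.11). Of the 9 tested genes opposite this list, TMEM147-AS1 and DCAF6 were the 2 called, both lower. Of all tested genes with an exon opposite them, 7.86% were lower and 3.40% higher. DCAF6, opposite the mitochondrial pyruvate carrier gene MPC2 over 473 bp, fell by 0.33 (SE 0.093). All of these calls but that of ENO3 were lost under library totals, and that of DCAF6 also without control library 1 (-0.25).

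Among other hypoxia genes 2 of 17 tested were lower, HIF1AN and DDIT4. HIF1AN, which encodes the asparagine hydroxylase that silences HIF1A, had 303, 305 and 290 CPM against 241, 209 and 212 CPM (log2 fold change -0.44 with SE 0.12 and adjusted p = 0.013 by edgeR). It lies opposite the complex I gene NDUFB8 over 325 bp, and NDUFB8 had 0 to 2 raw counts. The HIF1AN call was lost under library totals (-0.26) and without SOX9 sgRNA library 2 (-0.41) or 3 (-0.42). DDIT4, a stress-induced inhibitor of mTOR, fell by 1.98 on the log2 scale (SE 0.39), and ENSG00000269926 opposite it over 847 bp fell by 1.58 (SE 0.10). Those 847 bp are the whole exon length of ENSG00000269926. It had 198 to 592 raw counts per library, against 7 to 42 for DDIT4, so that the strand question above bears on this pair too. Of the 10 tested genes opposite this list 3 were lower and 1 higher, beside 7.86% and 3.40% of all tested genes with an exon opposite them. They also included SRFBP1, opposite the lysyl oxidase gene LOX over 138 bp, which fell by 1.92 (SE 0.33). Another was VLDLR-AS1, opposite VLDLR over 439 bp, which fell by 0.86 (SE 0.20). BHLHE40-AS1, which shares 4 bp with the hypoxia-induced repressor gene BHLHE40, rose by 0.51 (SE 0.16). It kept that call in 4 of 10 other settings and lost it, among others, when control library 2 (0.41) or 3 (0.45) or SOX9 sgRNA library 1 (0.49) or 3 (0.47) was left out.

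In the list of pentose phosphate, glycogen and gluconeogenesis genes 1 of 11 tested was lower. PC, the pyruvate carboxylase gene, had 311, 432 and 282 CPM against 218, 260 and 214 CPM (log2 fold change -0.57 with SE 0.13 and adjusted p = 0.00102 by edgeR), and LRFN4 lies opposite it over 621 bp. Control library 2 stood highest, and without it the value was -0.38 and not called. Of the 5 tested genes opposite this list 0 were called. In the tricarboxylic acid cycle list 2 of 11 were lower. MDH2, the mitochondrial malate dehydrogenase gene, was 1 of them and fell by 0.65 on the log2 scale (SE 0.19) and has no exon on its other strand. Its call was lost when control library 3 (-0.63) or SOX9 sgRNA library 2 (-0.62) or 3 (-0.57) was left out. Of the 7 tested genes opposite this list 3 were lower and 0 higher, beside 7.86% and 3.40% of all tested genes with an exon opposite them. The 3 were CNPY2-AS1 opposite CS (-0.49), ENSG00000245768 opposite GOT2 (-0.40) and ACSBG1 opposite IDH3A (-0.32). They overlap these genes over 28 bp, 162 bp and 2608 bp, out of 576, 2665 and 8230 bp of their own exons. Under library totals all 3 of these calls and that of MDH2 were lost. Leaving out 1 library ended the call of CNPY2-AS1 for control library 1 (-0.52) or 3 (-0.40) and SOX9 sgRNA library 1 (-0.48) or 3 (-0.46). It ended that of ACSBG1 for control library 1 (-0.31) or 3 (-0.27) and SOX9 sgRNA library 2 (-0.22). DESeq2 called neither (adjusted p = 0.072 and 0.14), the call of ACSBG1 was also lost with no filter (adjusted p = 0.080 by edgeR), and each kept its call in 4 of 10 other settings.

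**Figure D5:**
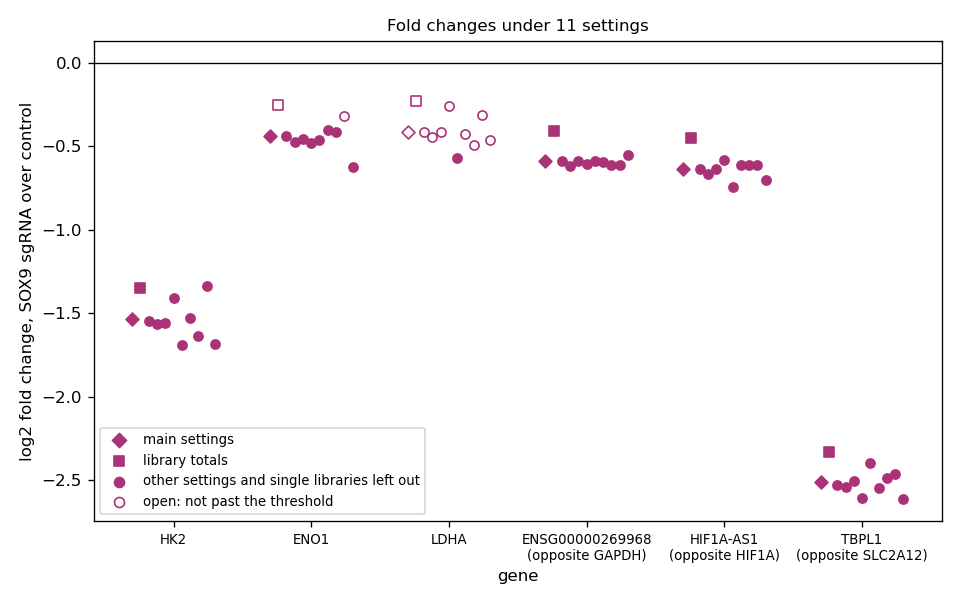
Log2 fold change (y axis) of 6 genes under the main settings, library totals, DESeq2, no filter, a replicate block and each library left out, 1 point per setting, filled where past the threshold. HK2 and the genes opposite GAPDH, HIF1A and SLC2A12 stay filled throughout, ENO1 has 2 open points, and LDHA has 1 filled point.

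HK2 and the 3 called genes on the other strand kept their calls in all 10 other settings. HK2 ranged from -1.69 to -1.34, TBPL1 from -2.62 to -2.33, HIF1A-AS1 from -0.74 to -0.45 and ENSG00000269968 from -0.62 to -0.40.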

How the data were processed

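Per the labels' protocols, total RNA came from an RNeasy Plus Micro kit and libraries from a stranded SMARTer kit for low input. The authors deposited raw counts of fragments for each gene, with no normalization, in a separate table for each library. The submitters' processing notes name STAR 2.7.10a and Subread 1.6.2 on GRCh37. Per the file headers, featureCounts 1.6.2 counted exons of Ensembl release 75, with strand setting 1 and fragments counted for every gene they overlap.

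Here, exon overlaps between strands (at least 1 base) came from bedtools 2.31.1. All 57209 identifiers entered edgeR 4.0.16 in R 4.3.3: filterByExpr at its defaults, TMM factors, the robust quasi-likelihood test of SOX9 sgRNA against control, and Benjamini-Hochberg adjustment over 7959 tested genes (threshold 0.05). SE is the log2 fold change divided by the root of the test's F. Intervals are 95% t intervals on that SE. Intervals and limits at 0 counts cover counting error or library spread only. DESeq2 1.42.0, library totals, no filter, a replicate block and leaving out each library were alternatives. The procedure was tested on simulated counts. Libraries are given singly for genes past the threshold or with a mean of at least 30 CPM in a group, and in raw counts for the other tested ones. Of the 4 other lists only called genes are named, and 1 of these is not reported here. The genes and lists were chosen with earlier results of these data known.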

Additional observations from a re-analysis of the deposited data

How the results depend on the processing

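Of the 5 called genes among the listed genes and those opposite them, 4 kept their call in all 10 other settings, ENO1 being the exception, and 16 of the 31 others neither gained a call nor changed sign. The listed genes called lower numbered 1 under library totals and 1 to 3 when a library was left out, and opposite genes called higher numbered 1 under library totals (ENSG00000272114). Of the 4 other lists, 4 genes were lower and 1 higher (RORA) under library totals, and 5 to 7 were lower with a library left out. Over all genes, library totals gave 249 lower and 625 higher, DESeq2 130 higher and no filter 151 higher. Signs of uncalled genes turned under library totals for PFKM (0.16), PGAM1 (0.016), PKM (0.043) and ANKRD37 (0.13), and with no filter for TPI1 (-0.013). With a library left out, values ran from -0.43 to 0.57 for SLC2A12, -0.69 to 0.026 for HK1, -0.21 to 0.10 for PFKM, -0.032 to 0.27 for PFKP, -0.16 to 0.19 for TPI1, -0.68 to 0.13 for PGK1, -0.57 to 0.31 for LDHB, -0.235 to 0.13 for ANKRD37 and -0.044 to 0.41 for SPSB2. The cause of these changes was not tested. Same-numbered libraries of the 2 groups did not deviate together (correlations -0.0029, 0.019 and -0.011). With the replicate block 2 listed genes and 3 opposite genes were lower, LDHB turned to -0.032, and no call among these genes changed. At these depths 11 of the 36 listed genes had too few counts to be tested.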
